A study of Mus musculus with 6 samples.

Results

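Potassium channels set the resting voltage of arterial muscle and endothelium, and the genes for their subunits carry symbols that begin with *Kcn*. All gene symbols made of *Kcn*, letters for the subfamily, a number and at most 1 further letter were taken from a count table of mouse aorta, which gave 93 potassium channel genes among 55341 genes in all. The table compares mice that lack miRNA-26b with wild-type mice. The questions addressed here are which channel subunits the vessel expresses and which of them differ between the genotypes.

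RNA was sequenced from 3 miRNA-26b-/- mice and 3 miRNA-26b+/+ mice, 1 library per mouse, all at 8 weeks of age and on chow diet. The labels give the strain C57BL/6NCrl. A floxed miR-26b allele made in embryonic stem cells of another strain was deleted through a tamoxifen-inducible CreERT2, and the Cre gene was then removed by breeding, so the deletion is not restricted to a cell type. Both arms of the miRNA, -3p and -5p, are lost in these mice. Chimeras were bred to C57BL/6 females, which gave strains of mixed background between C57BL/6 and the strain of the stem cells. All mice are also described as being on the C57BL/6 background, and whether background differed between the groups is not stated. The study's methods describe perfused aortic arch and thoracic aorta, whereas the labels name endothelial cells. The mice are called knockout 1 to 3 and wild-type 1 to 3 below.

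The libraries held 25706728 to 33345037 counts. *Mir26b* itself had 0 counts in each knockout library and 0, 20 and 0 in the wild-type libraries, too few to check the genotype. The 6 smooth muscle markers summed to 31457 to 41209 CPM, which are counts scaled to a common library total of 1e6, and the 7 endothelial markers to 410 to 1681 CPM, so the RNA was not that of endothelial cells alone. Knockout 1 and 2 had 410 and 449 CPM of the endothelial markers against at least 1170 in the other 4 libraries. *Kdr* did not follow this sum, with 564 and 995 counts in knockout 1 and 2, 249 in knockout 3 and 603 to 974 in wild type. The other markers of the list were each lower in knockout 1 and 2 than in the other libraries. Nerve and heart genes were unevenly spread: 5 of 7 sympathetic neuron markers and 4 of 6 cardiac muscle markers had a library without a count, and both sums were highest in knockout 2 (274 and 321 CPM) and then in wild-type 2 (56.0 and 282 CPM).

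A potassium channel is built from 4 pore-forming subunits, or from a pair where each carries 2 pore domains, and opens to let potassium leave the cell. Voltage-gated channels open on depolarization, calcium-activated channels open as calcium rises, inward rectifiers pass current near the resting voltage, and two-pore-domain channels leak. Auxiliary subunits do not form the pore but change its gating or its amount at the membrane. In arterial muscle the outflow of potassium hyperpolarizes the cell, closes voltage-gated calcium channels and favours relaxation.

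miRNAs lower the level or the translation of messenger RNAs whose 3′ untranslated region (UTR) pairs with their seed, bases 2 to 8 of the mature strand. The mature strands below are shown because the deleted miRNA has the same seed as miRNA-26a, which is encoded elsewhere. They are RefSeq sequences on GRCm38.p6, with the seed in capitals. miR-26b-5p lies at chr1:74394324-74394344 on the plus strand, and miR-26a-5p at chr9:119031811-119031832 and at chr10:126995543-126995564, both on the plus strand.

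miR-26b-5p: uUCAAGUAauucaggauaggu

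miR-26a-5p: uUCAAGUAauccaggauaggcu

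The letters TACTTGA, which pair with that seed, were looked for on the transcript strand of the longest annotated 3′ UTR of each gene (GENCODE M21). They were present in 12 of the 93 potassium channel genes, which is 12.9%, and in 2032 of 21004 protein-coding genes, which is 9.67%. The longer match with an A after these letters was present in 8 members (8.60%) and in 880 of all genes (4.19%). The 3′ UTRs of the members were longer, with a median of 1756 bases against 961. The windows below are those of 2 members with a match that the vessel expresses, in transcript direction on GRCm38, with the match in capitals. They lie at chr3:107111415-107111436 and chr3:107112396-107112417 on the plus strand for *Kcna2* and at chr1:21401213-21401234 on the minus strand for *Kcnq5*.

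Kcna2, first match: actagaaaccatTACTTGAttc

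Kcna2, second match: atacgctgcattTACTTGAAtt

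Kcnq5: gaaggggtttccTACTTGAggt

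Other members with a match included *Kcnb2*, *Kcnc2*, *Kcnf1*, *Kcnh7*, *Kcnj2*, *Kcnk1*, *Kcnk18*, *Kcnq3* and *Kcns2*. A match is a description of letters and does not show that the site is used.

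Of the 93 members, 23 had no count in any library, 70 had a count in at least 1, and 32 were counted in all 6. Levels of different genes are compared as CPM per kilobase of exon, with the merged exon length of all transcripts from the count table. A member is called expressed where this level was at least 1 in at least 2 libraries, and 27 members were expressed. At a level of 0.1 the number was 51, and at 5 it was 10. All members together took 0.116% to 0.147% of the counts of a library, and the 8 with the highest level held 73.5% of these.

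**Figure D1:**
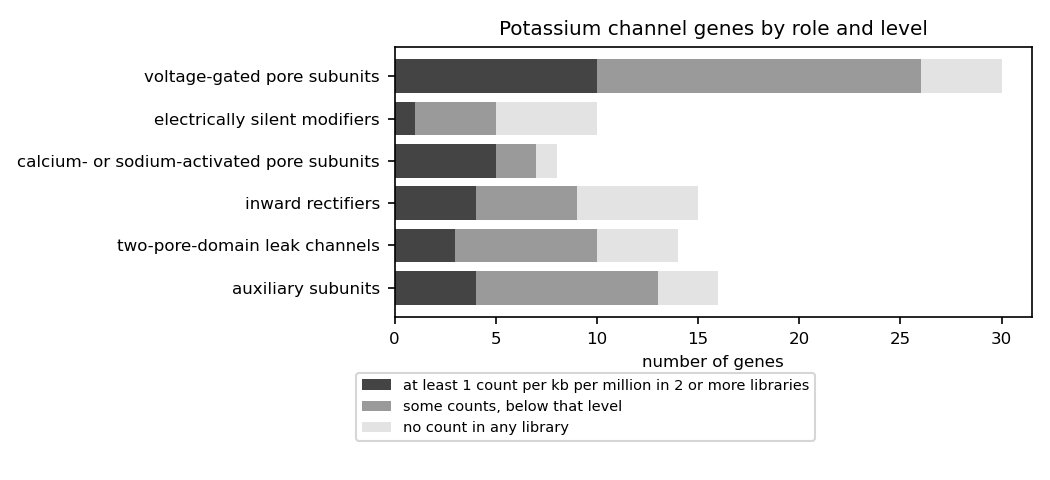
Number of potassium channel genes in each role (horizontal axis), divided into expressed genes, genes with counts below that level and genes without a count in the 6 libraries. Voltage-gated pore subunits are the largest role, with 10 of 30 expressed, and 5 of 8 calcium- or sodium-activated subunits are expressed.

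The roles differed in how many of their genes the vessel expressed. Voltage-gated pore subunits had 10 of 30 expressed, calcium- or sodium-activated pore subunits 5 of 8, inward rectifiers 4 of 15, two-pore-domain channels 3 of 14 and auxiliary subunits 4 of 16. Of the 10 electrically silent subunits, which work only when joined to a voltage-gated partner, *Kcns3* alone was expressed. The summed level was 46.6% auxiliary and 28.9% voltage-gated, and inward rectifiers gave 14.3%. The 23 genes without a count include the inward rectifiers *Kcnj1* and *Kcnj16*, known from the kidney, *Kcna10* of the inner ear and *Kcnv2* of the retina.

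*Kcnmb1*, the beta-1 subunit that raises the calcium sensitivity of the large-conductance calcium-activated channel of smooth muscle, was highest of all members, at 77.9 ± 6.83 CPM per kilobase (SD, n = 6). *Kcnh2*, a voltage-gated subunit best known from repolarization of the heart, followed at 28.7 ± 5.73 (SD, n = 6). *Kcnab1*, a beta subunit of the Kv1 family, stood at 23.6, and *Kcnj8*, the pore of the vascular ATP-sensitive channel, at 22.2. Only the first of these steps was larger than the spread over libraries: each *Kcnmb1* value lay above every *Kcnh2* value, whereas for each of the 25 later pairs of neighbours in the order the ranges overlapped. In 6 of 6 libraries *Kcnmb1* was 2.03 to 3.33 times *Kcnh2*.

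**Figure D2:**
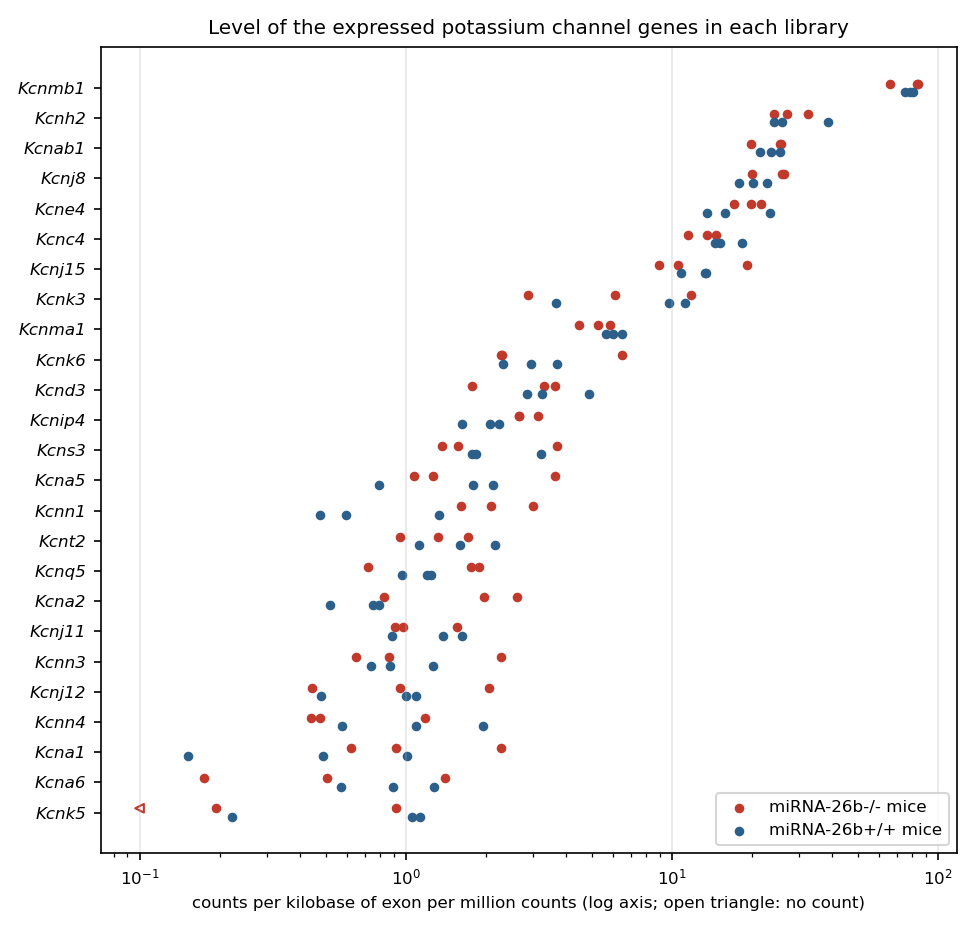
Level of 25 of the 27 expressed potassium channel genes, the others being not reported here, in each library (horizontal log axis, CPM per kilobase of exon), one row per gene, with miRNA-26b-/- mice in red and miRNA-26b+/+ mice in blue. *Kcnmb1* stands apart at 65.7 to 84.1, and the spread between mice grows towards the low end, where *Kcnk5* had no count in knockout 2.

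Further levels were 18.5 for *Kcne4*, which inhibits some voltage-gated channels, 14.6 for *Kcnc4*, a fast voltage-gated subunit, and 12.7 for the inward rectifier *Kcnj15*. *Kcnk3*, an acid-sensitive leak channel, stood at 7.56, *Kcnma1*, the pore partner of *Kcnmb1*, at 5.62 and the leak channel *Kcnk6* at 3.33 CPM per kilobase. The 15 expressed members below the first 12 lay between 3.28 (*Kcnd3*) and 0.588 (*Kcnk5*), and they include *Kcna5*, *Kcnq5*, *Kcna2*, *Kcnj11*, *Kcnn3* and *Kcnn4*, all known from arterial muscle or endothelium. *Kcnq1* and *Kcnj2*, which are also named in vascular work, were below the level used here with merged exons, at 0.254 and 0.167.

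Places in this order depend on the length used, most visibly for *Kcnma1*. Its merged exons span 16976 bases because 31 protein-coding transcripts are annotated, and their median length is 3498 bases. With the median length of annotated protein-coding transcripts in place of the merged length, an alternative added after seeing the data, *Kcnma1* moved from place 10 to place 4 at 27.3 CPM per kilobase, and 32 members were expressed. *Kcnmb1* has 1 annotated coding transcript and stayed first at 77.9, but *Kcnab1* rose to 62.4 and passed *Kcnh2* at 37.6. *Kcnd3* rose from 3.28 to 11.8, and *Kcnj11*, with a median coding transcript of 705.5 bases, from 1.23 to 6.39. *Kcnq1* rose to 3.54, above the level of 1, with a median coding transcript of 294 bases. For *Kcnj11* and *Kcnq1* the median is shorter than the longest annotated 3′ UTR of the gene (1629 and 917 bases). It thus does not stand for a full transcript, and the level is raised by the short length. The ratio of *Kcnmb1* to *Kcnma1* was 12.1 to 15.9 over the 6 libraries with merged exons and 2.86 for the means with the median transcript.

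Partner subunits of other complexes differed widely in level. The ATP-sensitive channel of vascular muscle joins *Kcnj8* to the sulfonylurea receptor *Abcc9*, which stood at 61.6 CPM per kilobase, while *Kcnj11* and its partner *Abcc8* were at 1.23 and 0.103. *Kcnj8* was 66.9 to 261 times the classical inward rectifier *Kcnj2* in the 4 libraries where *Kcnj2* had a count. *Lrrc26*, *Lrrc38*, *Lrrc52* and *Lrrc55*, the gamma subunits of the large-conductance channel, each had at most 41 counts in a library.

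For the comparison of genotypes, 48 members passed a filter on low counts (more than 1 CPM in at least 2 libraries) and were tested together with all other genes, 16017 in all, by edgeR's quasi-likelihood test. The 45 members that did not pass comprise the 23 without a count and 22 with at most 86 counts in a library. Of the 48, 3 had an unadjusted p under 0.05, which is 6.25%, against 6.47% of all genes tested. All 3, *Kcna2*, *Kcnn1* and *Kcnh8*, were higher in knockout, where 3.40% of all genes were called, and no member was among the 3.07% of genes called lower. After Benjamini-Hochberg adjustment over all genes no member was called, against 0.00624% of all genes, which is 1 gene, and the smallest adjusted p of a member was 0.734 (edgeR). In CPM the groups did not overlap for 4 of the 48 (8.33%), against 11.7% of all genes tested. The share of members called was thus close to the background. Of the 48 fold changes 23 were positive and 25 negative, with a median of -0.01 on the log2 scale against 0.01 over all genes. Because the RNA is that of a whole vessel, fewer cells of a type and less RNA per cell cannot be told apart.

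**Figure D3:**
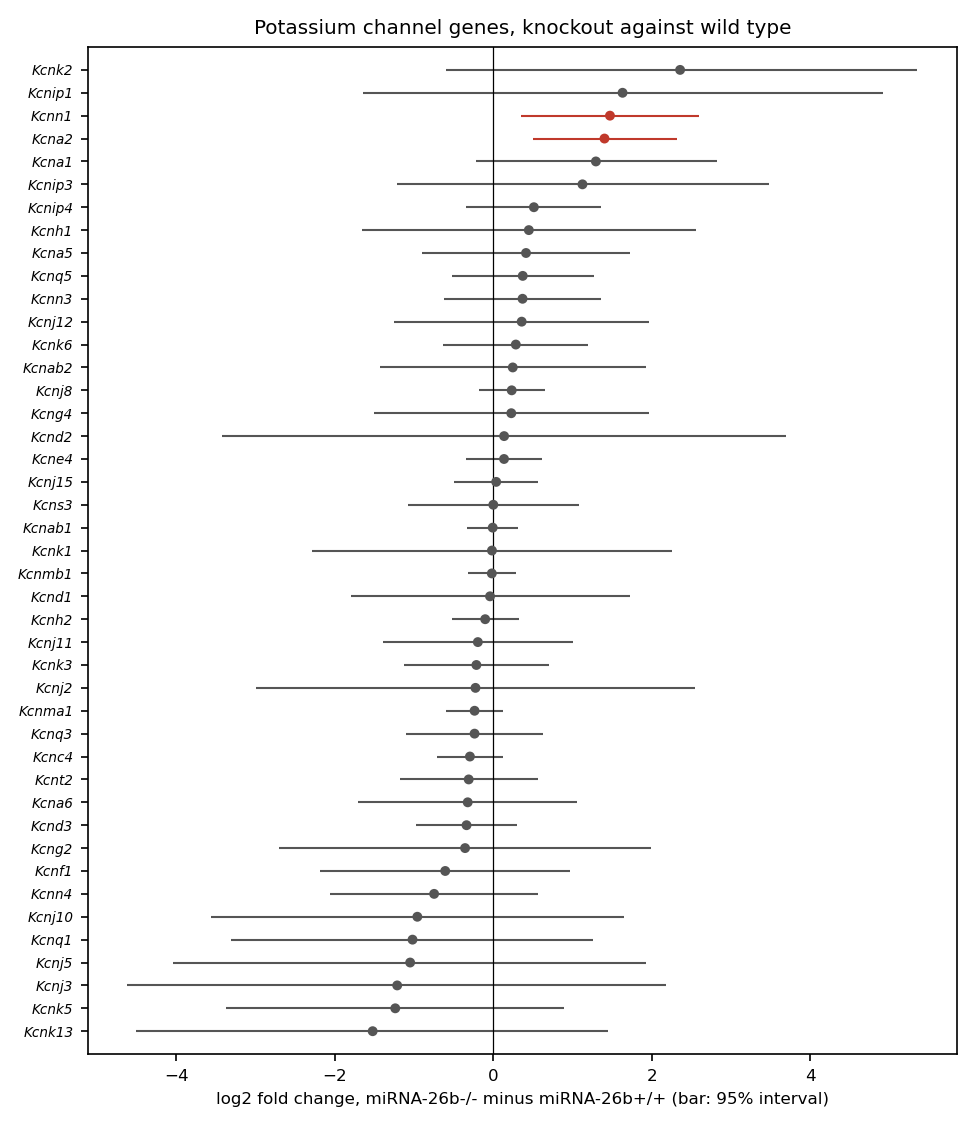
Log2 fold change of miRNA-26b-/- over miRNA-26b+/+ with its 95% interval (edgeR) for 43 of the 48 tested potassium channel genes, in order of the fold change, with those at an unadjusted p under 0.05 in red. *Kcnh8* and *Kcnab3* are left out because 1 group has no count and 3 others are not reported here, and of those plotted only *Kcnn1* and *Kcna2* have an interval that leaves out 0.

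*Kcna2*, a Kv1 pore subunit of nerve fibres and also of arterial muscle, lies on chromosome 3 from 107101146 to 107115005 on the plus strand. Its counts were 602, 1039 and 275 in the knockout libraries and 272, 262 and 190 in the wild-type libraries. That is 23.4, 31.2 and 9.85 CPM against 9.0, 9.41 and 6.17, so the groups did not overlap, but knockout 3 lay close to wild-type 2. The means were 21.5 ± 10.8 and 8.19 ± 1.77 CPM (SD, n = 3 each). The log2 fold change was 1.40 (SE 0.426, 95% interval 0.50 to 2.31; edgeR, adjusted p = 0.734).

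This estimate moved with single libraries. Without knockout 2 the log2 fold change was 0.999, and without knockout 3 it was 1.75 with an adjusted p of 0.0297 (edgeR), the only member called after adjustment in any alternative. In that fit without knockout 3, 82 of all genes tested (0.524%) were called after adjustment, against 1 gene in the main fit. There 10.8% of all genes had an unadjusted p under 0.05, against 6.47% in the main fit (edgeR). Over all alternatives the adjusted p of *Kcna2* ran from 0.0297 to 0.9996. The unadjusted p stayed under 0.05 with each single library left out (edgeR, at most 0.0480). With both knockout 2 and wild-type 2 left out, an alternative added after seeing the data, the log2 fold change was 1.11 and the call was lost.

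The summed markers of Schwann cells, which ensheath nerve fibres, were higher in knockout, as was *Kcna2*. The 6 markers summed to 155, 144 and 86.7 CPM in knockout and to 17.4, 41.9 and 49.4 CPM in wild type, and for 3 of the 6 every knockout library lay above every wild-type library. All 6 had counts, and *Ncmap* had 0 in wild-type 1. Within wild type the orders differed: wild-type 3 had the highest Schwann cell sum and the lowest *Kcna2* value, 6.17 CPM. The 7 sympathetic neuron markers summed to 9.96, 274 and 10.5 CPM in knockout and to 11.5, 56.0 and 23.6 CPM in wild type, so their groups overlapped. The part of either marker list in the *Kcna2* result was not tested.

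*Kcna1*, the usual partner of *Kcna2* in nerve fibres, had 4.40, 10.9 and 2.97 CPM in knockout and 0.728, 4.81 and 2.34 in wild type. The groups overlapped, with a log2 fold change of 1.30 (SE 0.712; edgeR, adjusted p = 0.796). The beta subunit *Kcnab2*, found with both in nerve, was at 6.15, 2.55 and 1.33 CPM against 0.563, 3.91 and 3.67, also overlapping.

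*Kcnn1*, a small-conductance calcium-activated channel best known from neurons, lies on chromosome 8 from 70842049 to 70863258 on the minus strand. It had 247, 247 and 384 counts in knockout and 66, 170 and 84 in wild type. In CPM this was 9.61, 7.41 and 13.8 against 2.18, 6.11 and 2.73, again without overlap, with means of 10.3 ± 3.23 and 3.67 ± 2.12 (SD, n = 3 each). The log2 fold change was 1.47 (SE 0.527, 95% interval 0.35 to 2.60; edgeR, adjusted p = 0.736). The Schwann cell sum was also higher in every knockout library (86.7 to 155 CPM) than in every wild-type library (17.4 to 49.4 CPM). Within the knockout group, knockout 3 was highest in *Kcnn1* and lowest in this sum. The part of Schwann cells in the *Kcnn1* values was not tested. With single libraries left out the log2 fold change ran from 1.19 to 2.04, and the unadjusted p was under 0.05 in 3 of 6 such fits.

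*Kcnh8*, a voltage-gated subunit of brain, had 0, 60 and 74 counts in knockout and 0 in all wild-type libraries. The groups overlapped, since knockout 1 was at 0 too. Against a floor of 3 counts per wild-type library, the knockout mean of 1.48 CPM was at least 14.6-fold higher (edgeR, adjusted p = 0.736). With single libraries left out it was tested in 4 fits, and its unadjusted p was under 0.05 in 1 of them, without knockout 1, and at most 0.0632 in the others (edgeR). This floor covers counting error only. The mirror case was *Kcnab3*, a beta subunit of voltage-gated channels, with 0 in all knockout libraries and 0, 60 and 39 counts in wild type, at least 10.9-fold lower in knockout (edgeR, adjusted p = 0.769).

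**Figure D4:**
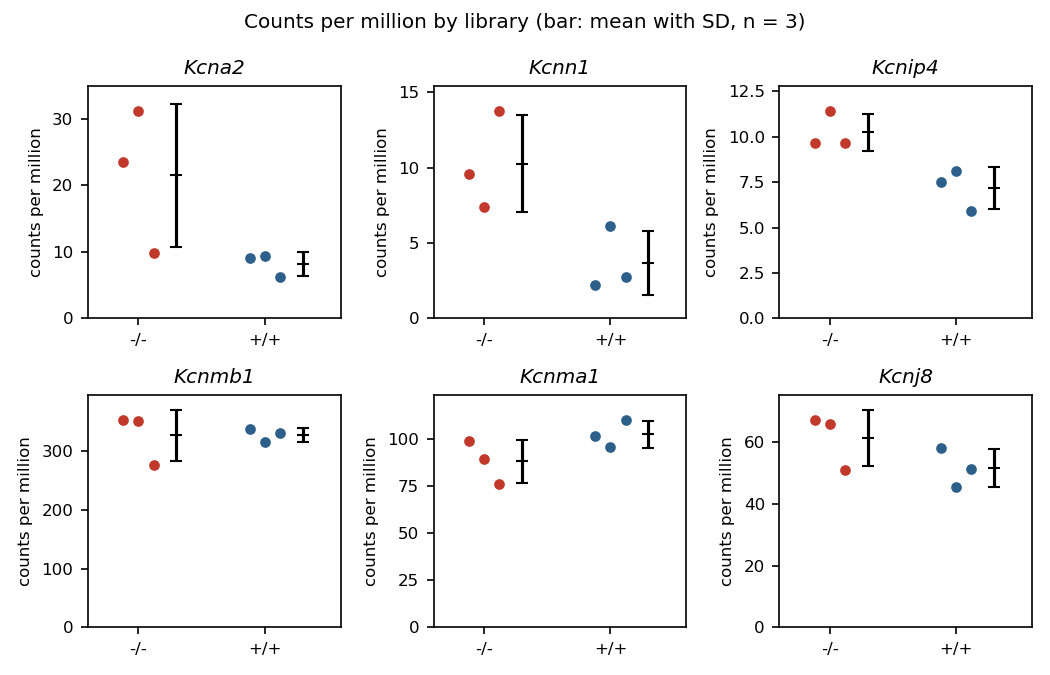
CPM of 6 potassium channel genes in each library, from 0, with points for single mice and a bar for the mean with its SD (n = 3). In the upper row (*Kcna2*, *Kcnn1* and *Kcnip4*) every knockout value lies above every wild-type value, whereas *Kcnmb1*, *Kcnma1* and *Kcnj8* in the lower row overlap.

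Besides *Kcna2* and *Kcnn1*, the groups did not overlap for *Kcnip4* and *Kcnk2*, again with knockout above wild type. *Kcnip4*, a calcium-binding partner of Kv4 channels, had 9.65, 11.4 and 9.68 CPM against 7.51, 8.12 and 5.91, a log2 fold change of 0.51 (SE 0.398; edgeR, adjusted p = 0.880). *Kcnk2*, a stretch-sensitive leak channel, had 52, 31 and 35 counts against 23, 0 and 0, a log2 fold change of 2.36 with an interval from -0.60 to 5.35. Exons of other genes on the opposite strand cover 7.36% of the exon bases of *Kcnip4* and 12.2% of those of *Kcnk2*, and reads were counted without strand. Among the expressed members this share was highest for *Kcna6*, at 39.6%.

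None of the 12 members with the highest level had an unadjusted p under 0.05, and in all 12 the groups overlapped. Their log2 fold changes ran from -0.29 to 0.29 (edgeR, smallest adjusted p = 0.855). The precision differed widely among them: the 95% interval was 0.602 wide for *Kcnmb1* and 1.83 wide for *Kcnk6*. These intervals, and not the missed threshold, say which changes could have gone unseen.

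For the large-conductance channel both subunits were measured well. *Kcnmb1* had 352, 351 and 276 CPM in knockout and 337, 315 and 329 in wild type. The log2 fold change was -0.02 (95% interval -0.32 to 0.28; edgeR, adjusted p = 0.994). *Kcnma1* was at 99.0, 89.2 and 76.3 CPM against 102, 95.9 and 110, a log2 fold change of -0.23 (95% interval -0.59 to 0.12; edgeR, adjusted p = 0.858). For both genes knockout 3 was the lowest library, and this library also had the lowest smooth muscle marker sum, 31457 CPM.

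The ATP-sensitive channel gave opposite signs for its subunits, neither of them past the threshold. *Kcnj8* had 67.3, 65.9 and 51.1 CPM in knockout and 58.1, 45.7 and 51.5 in wild type, with a log2 fold change of 0.23 (95% interval -0.18 to 0.65). *Abcc9* had 444, 504 and 490 CPM against 529, 562 and 567, so its groups did not overlap, and its log2 fold change was -0.22 (95% interval -0.49 to 0.05; edgeR, adjusted p = 0.805). *Kcnj11* was at 3.35, 3.60 and 5.73 CPM against 3.28, 6.00 and 5.09.

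Among the voltage-gated genes of high level, *Kcnh2* had 157, 131 and 118 CPM in knockout and 117, 125 and 187 in wild type. *Kcnc4* had 49.7, 42.0 and 53.9 against 53.4, 67.3 and 55.4 CPM, a log2 fold change of -0.29 (95% interval -0.71 to 0.13). *Kcnc4* came close to separation, as knockout 3 exceeded wild-type 1 by under 1 CPM.

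*Kcnq5*, whose 3′ UTR holds a seed match, had 5.56, 13.5 and 14.5 CPM in knockout and 9.23, 9.55 and 7.43 in wild type. *Kcna5* had 3.07, 10.4 and 3.62 CPM against 5.13, 6.11 and 2.27. In both the groups overlapped, and the order of the libraries differed between the genes.

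The auxiliary subunits *Kcnab1* and *Kcne4* gave fold changes near 0. *Kcnab1* was at 218, 220 and 170 CPM in knockout and at 219, 184 and 203 in wild type, and *Kcne4* at 57.2, 52.5 and 45.6 against 61.8, 35.9 and 41.9. *Kcnq1* had at most 63 counts in a library, so its log2 fold change of -1.02 has an interval from -3.30 to 1.26.

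The leak channels *Kcnk3* and *Kcnk6* varied more between mice of 1 genotype than between the genotype means. *Kcnk3* had 24.3, 46.8 and 11.5 CPM in knockout and 38.9, 44.4 and 14.5 in wild type, a log2 fold change of -0.21 (SE 0.427; edgeR, adjusted p = 0.969). The 4 brown fat markers, among them *Ucp1*, summed to 182, 404 and 83.9 CPM in knockout and to 196, 280 and 82.2 in wild type. Both were highest in knockout 2 and then in wild-type 2, wild-type 1 and knockout 1, and both were lowest in the third library of each group. The 4 general adipocyte markers had the same order of libraries as the brown fat markers, with 271, 594 and 241 CPM in knockout and 307, 434 and 144 in wild type. The part of brown or other fat in the level of *Kcnk3* was not tested.

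*Kcnk6* had 9.49, 9.51 and 26.9 CPM in knockout and 12.2, 15.3 and 9.61 in wild type. *Kcnn3*, a small-conductance calcium-activated channel of endothelium, had 6.81, 9.06 and 23.7 CPM against 7.71, 9.12 and 13.2. In both, knockout 3 stood above the other 5 libraries. Without knockout 3 the log2 fold change of *Kcnk6* went from 0.29 to -0.38 and that of *Kcnn3* from 0.37 to -0.33. Knockout 3 also had the highest sums of the 7 endothelial (1681 CPM), 5 fibroblast (7493 CPM) and 5 macrophage markers (402 CPM). Of the single markers, 3 of 7 endothelial ones were highest in knockout 3, and all 5 fibroblast and all 5 macrophage ones. The part of these cell types in the *Kcnk6* and *Kcnn3* values was not tested.

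*Kcnn4*, the intermediate-conductance channel of endothelium and blood cells, had 2.26, 6.06 and 2.44 CPM in knockout and 9.96, 2.94 and 5.58 in wild type. The log2 fold change was -0.75 (95% interval -2.06 to 0.57; edgeR, adjusted p = 0.888). *Kcnj2* had 53, 18 and 0 counts against 56, 28 and 0, and *Kcnj15* was highest in knockout 2 with 121 CPM against 56.3 to 84.9 in the other libraries.

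Many low members were seen in few libraries. Of the 48 tested, 16 had a library without a count, which is 33.3%, against 14.3% of all genes tested, and 13 members had counts in 1 library only. Knockout 2, the library with the most counts, had counts for 54 members against 43 to 50 in the others, was the highest library for 19 of the 70 members with a count, and was the only library with counts for 5 of the 13.

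**Figure D5:**
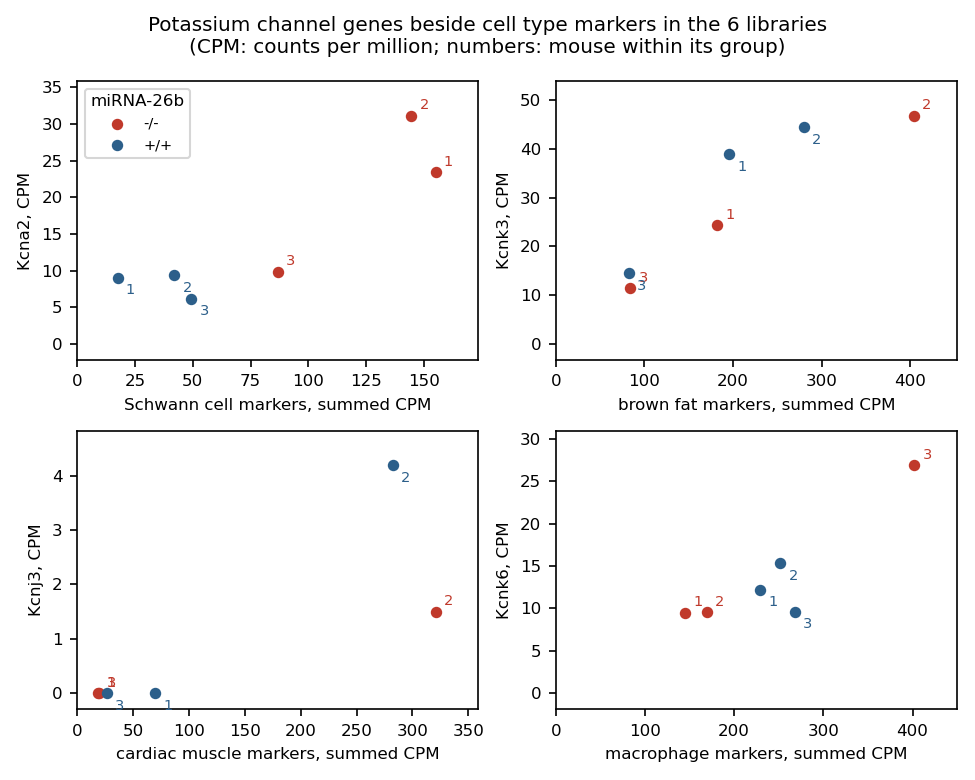
CPM of *Kcna2*, *Kcnk3*, *Kcnj3* and *Kcnk6* (vertical axes) against the summed CPM of a marker list (horizontal axes) in the 6 libraries, with knockout in red, wild type in blue and the mouse number beside each point. *Kcnj3* has counts only in the 2 libraries with cardiac marker sums of 282 CPM or more, and *Kcnk6* is highest in knockout 3, where the macrophage markers reach 402 CPM.

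Some of these members are best known from heart or nerve. *Kcnj3* and *Kcnj5*, which together form the acetylcholine-gated channel of the atrium, had 0, 50 and 0 and 0, 56 and 0 counts in knockout and 0, 117 and 0 and 33, 84 and 0 in wild type. Their counts fell in knockout 2 and wild-type 2, and for *Kcnj5* also in wild-type 1, the 3 libraries with the highest cardiac marker sums. *Kcnb2*, a voltage-gated subunit of neurons, was counted in knockout 2 only, with 86, the library with the highest sum of neuron markers. Knockout 2 also had the highest sums of the cardiac, fast skeletal muscle, adipocyte and brown fat markers and the most counts in all. The part of heart and nerve tissue in these values was not tested.

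Fold changes with and without a seed match are given side by side, with no test. The 7 tested members with a match had a median log2 fold change of -0.02, with 3 positive and 1 unadjusted p under 0.05 (*Kcna2*). The 41 without a match had a median of -0.01, with 20 positive and 2 such p-values. Among the tested protein-coding genes with an annotated 3′ UTR, 1523 with a match had a median of -0.004 and 92 such p-values, and 11937 without had a median of 0.02 and 735.

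The other genes of the pathway, a fixed list of 37 partner subunits, pacemaker channels, pump subunits and calcium or cation channels, had 26 tested. Of these 26, 5 had an unadjusted p under 0.05 (edgeR), 2 higher and 3 lower, against 6.47%, 3.40% and 3.07% of all genes. The groups did not overlap for 6 of the 26, against 11.7% of all genes tested. Both shares were above the background, in a list written with earlier results of these data known. None was called after adjustment (edgeR, smallest adjusted p = 0.734), and the median log2 fold change was 0.09. The higher genes were *Cacnb3*, a beta subunit of voltage-gated calcium channels, with 57.5, 66.6 and 64.0 CPM against 35.6, 34.6 and 47.5, and *Hcn4*, the main pacemaker channel of the heart, with 61, 176 and 79 counts against 28 in each wild-type library. Both separated the groups.

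The lower genes included *Cacna1g* and *Trpv4*, and both separated the groups. *Cacna1g*, a T-type calcium channel, had 12.4, 12.4 and 14.7 CPM against 16.3, 26.6 and 25.4. *Trpv4*, a cation channel of endothelium that supplies calcium to *Kcnn3* and *Kcnn4* channels, had 2.53, 2.64 and 12.4 CPM against 14.4, 19.4 and 16.8, a log2 fold change of -1.56 (SE 0.489). Its lowest values were in knockout 1 and 2, the libraries with the lowest endothelial marker sums. Knockout 3 had the highest of these sums, 1681 CPM, and its *Trpv4* value still lay below every wild-type library. The part of endothelial cells in the *Trpv4* values was not tested.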

How the data were processed

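Aortic RNA of 6 mice was sequenced by the authors with a kit that does not mark strand. Alignment by the authors used STAR and GRCm38 (mm10), and they deposited raw counts per gene name from featureCounts 1.6.4, unstranded; a read that overlaps exons of more than 1 gene adds to each. The count table's header names GENCODE M21, and the exon lengths of all 93 members match that release. A second deposited table, with normalized values and the fold changes and p-values of the authors, was not used here.

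A gene was kept if its counts summed to 2 or more and 2 or more libraries exceeded 1 CPM, and kept genes were tested with edgeR 4.0.16 (TMM, quasi-likelihood test, prior count 0.125) in R 4.3.3 with Benjamini-Hochberg adjustment over all 16017 genes. SEs were derived from the F statistic, and intervals are at 95%. The procedure was tested on simulated data. Total counts of 25706728 to 33345037 put 3 counts at 0.0900 to 0.117 CPM. With 3 mice a group, the smallest 2-sided p of an exact permutation test is 0.1, so none was used. Seed matches were searched in GENCODE M21 transcripts.

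Values are named for the 12 members of highest level, those with an unadjusted p under 0.05 and 16 members known from vascular work, 22 in all; some of these are not reported here. Further members and genes were named after their values were seen. The members, lists and tests were chosen with earlier results of these data known. The labels give no litter or batch. Alternatives were other normalizations, DESeq2 1.42.0, limma 3.58.1 (voom), other edgeR settings and filters, leaving out libraries, and 2 added after seeing the data.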

Additional observations from a re-analysis of the deposited data

How the results depend on the processing

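The number of members tested (48) and the number at an unadjusted p under 0.05 (3) stayed within 1.5 times under every alternative that kept all libraries. With single libraries left out, the latter ran from 1 (without wild-type 3) to 4 and the number called after adjustment from 0 to 1 (edgeR). The member called was *Kcna2* without knockout 3, a fit in which 82 of all genes tested (0.524%) were called. The number of expressed members was 51 at a level of 0.1 and 10 at a level of 5. No paired analysis was possible because the labels give no shared replicate numbers. For named genes the threshold below is an adjusted p under 0.05. No named gene passed it in the main fit, so keeping its side says little, and a lost unadjusted call is not counted as a change. Of 355 values of named genes over the alternatives, 328 kept sign and side of the threshold, 1 passed the threshold after adjustment (*Kcna2* without knockout 3) and 26 changed sign, all of them fold changes that were not called; the cause was not tested.

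Among these, *Kcnab1* had a log2 fold change of 0.00829 by library size only, 0.000803 with the size factors of DESeq2, 0.000945 with DESeq2 and 0.00186 with a sum of at least 2 counts as the only filter. *Kcnj15* gave -0.0215 with limma voom. With knockout 2 and wild-type 2 both left out, *Kcne4* gave -0.0180, *Kcnj15* -0.32, *Kcna5* -0.14, *Kcnj11* 0.12 and *Kcnj2* 0.10. With single libraries left out, log2 fold changes ran from -0.0838 to 0.0943 for *Kcnmb1*, -0.24 to 0.15 for *Kcnh2*, -0.0683 to 0.11 for *Kcnab1*, -0.00381 to 0.38 for *Kcne4*, -0.38 to 0.25 for *Kcnj15*, -0.88 to 0.16 for *Kcnk3*, -0.38 to 0.57 for *Kcnk6*, -0.42 to 0.70 for *Kcna5*, -0.46 to 0.00125 for *Kcnj11*, -0.33 to 0.64 for *Kcnn3* and -1.69 to 0.74 for *Kcnj2*. *Kcnab3* joined the members at an unadjusted p under 0.05 with DESeq2, the likelihood ratio test and the earlier quasi-likelihood method, and *Kcnh8* left them with limma voom and without each wild-type library, and did not pass filterByExpr.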
